A study of Mus musculus with 2 samples.

Results

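Bdh1, Acat1, Pdk4, Fgf21, Vnn1 and Txnip are 6 genes that liver is known to use in ketogenesis and in the response to fasting. They were chosen by symbol, as the genes whose symbol stands in a row of the expression table, and they are 6 of the 33224 gene symbols measured. The 6 genes and the gene lists set beside them were chosen with earlier results of these data known. The samples were regenerating livers of male C57BL/6 mice 48 hr after partial hepatectomy (PH), the surgical removal of most of the liver, after which the remnant grows back. There was 1 library of wild-type (WT) liver and 1 of PPARβ-null (KO) liver, in which the nuclear receptor PPARβ, encoded by Ppard, is absent. The labels give it as a null genotype and name no tissue-specific deletion. Both were labelled with an age of 4 months, while the methods give 3 to 5 months and the series description 3 months. Both genotypes underwent PH and had free access to food under 14 hr of light and 10 hr of dark. The comparison asks how the loss of PPARβ bears on gene expression during regeneration. The liver of how many mice went into a library, the time of day and the state of feeding at collection, and the way the null allele was made are not given in the sources used here.

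During a fast, fatty acids released by adipose tissue reach the liver, and the nuclear receptor PPARα switches on the genes that oxidise them. Much of the acetyl-CoA so formed leaves the liver as the ketone bodies acetoacetate and β-hydroxybutyrate, which other organs burn in place of glucose. At the same time liver holds back the oxidation of pyruvate and secretes the hormone FGF21. In regenerating liver, fat also accumulates in hepatocytes for a time after PH.

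With 1 library per genotype, no difference below has a replicate check, and no p-value is given. Levels are FPKM (fragments per exon length in kb, relative to the depth of a library), which can be set side by side between genes. From the steps between the lowest values, 1 fragment on a transcript of 1 kb equalled about 0.0192 FPKM in WT and 0.0176 FPKM in KO. At 1 FPKM, such a transcript had about 52.1 fragments in WT and 56.8 in KO. The 95% intervals given with KO/WT and WT/KO ratios are exact binomial intervals on fragments estimated in this way. They cover counting error only and hold nothing of the spread from mouse to mouse. Ppard itself stood at 2.67 FPKM in WT against 2.42 in KO, and the KO/WT ratio was 0.906 (0.793 to 1.04). The value is that of the whole locus, so it does not check the deletion of a part of the gene.

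All 6 genes had a higher FPKM in the KO than in the WT library. Fgf21 had a KO/WT ratio of 22.8, Pdk4 of 2.58, Bdh1 of 2.26, Vnn1 of 2.04, Acat1 of 1.73 and Txnip of 1.46. Among the 15727 genes averaging at least 0.1 FPKM in the 2 libraries, 25.2% had any higher value in KO. More than 1.5-fold higher in KO were 5 of the 6 genes, against 6.05% of all genes, and more than 1.5-fold lower were 0 of the 6, against 26.0%. More than 2-fold higher were 4 of the 6, all but Acat1 and Txnip, against 2.79% of all genes, while 13.4% of all genes were more than 2-fold lower. The median log2 KO/WT ratio, with a pseudocount of 0.1 FPKM, was 1.10 over the 6 genes and -0.25 over all genes. Of the genes past 1.5-fold in either direction, 18.9% were higher in KO with the FPKM as deposited. That share was 39.6% with equal upper quartiles, 36.2% with both libraries centred on the median of expressed genes, and 29.0% with equal sums. Each of these scalings raises every KO/WT ratio by the same factor, 1.21, 1.18 or 1.11. As these factors are above 1, they could not turn the direction of the 6 genes, and with them Txnip also passed 1.5-fold.

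**Figure D1:**
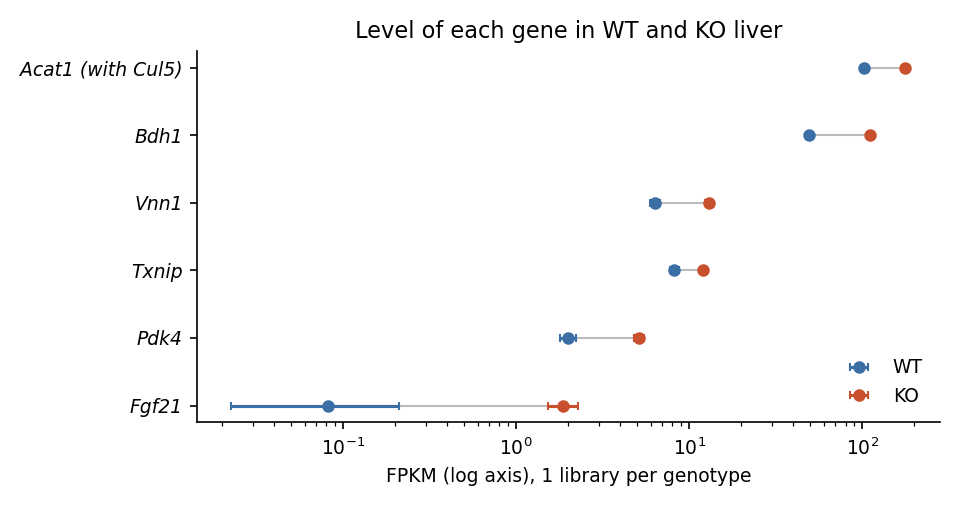
FPKM (horizontal log axis) of the 6 genes, with 1 point for the WT and 1 for the KO library, joined by a grey line, and bars for 95% counting intervals, many of them narrower than the point. The KO point lies to the right of the WT point for each gene, and the gap is widest for Fgf21, at 0.0821 and 1.87 FPKM.

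**Figure D2:**
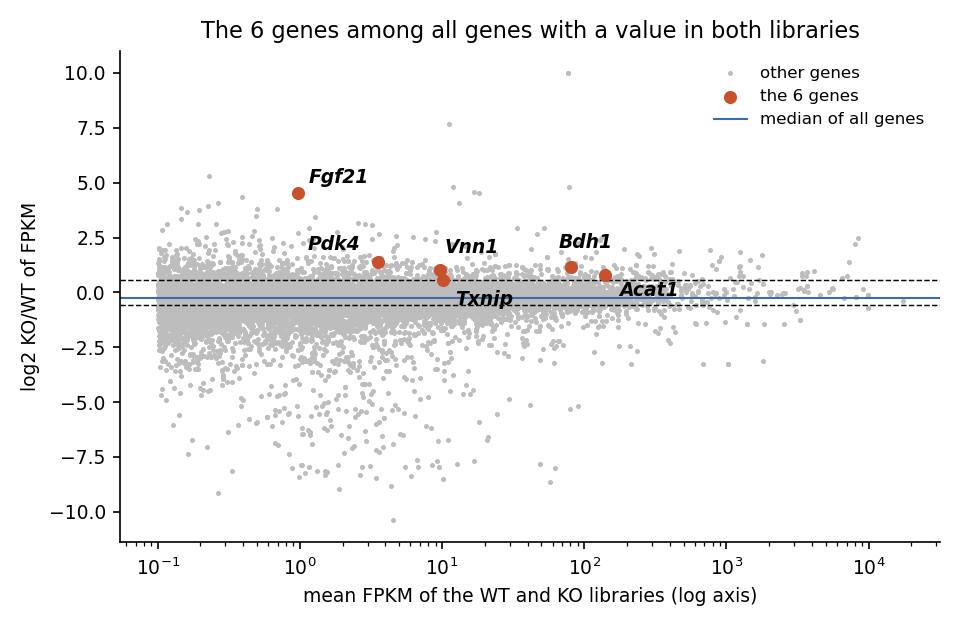
log2 KO/WT ratio of FPKM against the mean FPKM of both libraries (log axis) for genes with a mean of at least 0.1, with the 6 genes in colour. The dashed lines mark 1.5-fold, the solid line is the all-gene median of -0.25 with a pseudocount of 0.1 FPKM, and genes listed at 0 in 1 library are not drawn. All 6 genes lie above the solid line, and 5 lie above the upper dashed line.

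The order of the levels was nearly the same in both livers. In WT, Acat1 was the most abundant of the 6 genes, followed by Bdh1, Txnip, Vnn1, Pdk4 and Fgf21. In KO, Vnn1 stood before Txnip, but the counting intervals of their FPKM overlapped, from 12.4 to 13.6 and from 11.5 to 12.6, so these neighbours in the order could not be told apart. All other neighbours were farther apart than their counting intervals. By mean FPKM, Acat1 ranked 550th and Bdh1 958th of the 15727 genes, whereas Fgf21 ranked 11761st. By KO/WT ratio, Fgf21 ranked 34th, with 0.210% of genes above it, and Txnip 1030th, with 6.54% above it.

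Acat1 encodes the mitochondrial acetyl-CoA acetyltransferase that joins 2 molecules of acetyl-CoA, the opening step towards ketone bodies. It stood at 102 FPKM in WT against 177 in KO, and the KO/WT ratio was 1.73 (1.70 to 1.76). Acat1 (ENSMUSG00000032047) is a minus-strand gene of chromosome 9 (53388627 to 53418487, NCBIM37), with 12 exons in the longest of its 3 annotated transcripts. Its row in the table also names Cul5, a cullin gene of the same strand, and covers 53388627 to 53489370. The value is that of the joint locus, and the parts of the 2 genes in it were not separated. Its interval treats all fragments as those of the longest Acat1 transcript. The antisense transcript Gm16124, inside the same locus, stood at 1.05 FPKM in WT against 1.87 in KO. The library kit does not mark strand, so reads of Acat1 and of Gm16124 cannot be told apart where they overlap.

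Bdh1 encodes the mitochondrial dehydrogenase that turns acetoacetate into β-hydroxybutyrate, the main ketone body in blood. It stood at 49.3 FPKM in WT against 111 in KO, from about 8016 and 19773 fragments, which gave a KO/WT ratio of 2.26 (2.20 to 2.32). Bdh1 (ENSMUSG00000046598) is a plus-strand gene of chromosome 16 (31422366 to 31458987), with 7 exons in the longest of its 6 annotated transcripts. The antisense transcript Gm15743 in its locus was listed at 0 in WT and at 0.0923 FPKM in KO, about 1.27 fragments.

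The other genes of the ketone body list had no common direction. Of its 14 genes, none of which is Bdh1 or Acat1, 11 had a mean FPKM of at least 0.1. Of these, 2 were more than 1.5-fold higher and 5 more than 1.5-fold lower in KO, beside 6.05% and 26.0% of all genes. The median log2 KO/WT ratio was -0.20, beside -0.25 over all genes. The median turned positive, at 0.08, with equal upper quartiles and at 0.04 with centring. Among the higher genes was Slc16a6, a monocarboxylate carrier known to export ketone bodies from hepatocytes, with 5.20 FPKM in WT against 11.2 in KO. Its row also names a microRNA. Slc16a1, the carrier MCT1, had 24.9 and 28.1 FPKM, a KO/WT ratio of 1.13 (1.09 to 1.17). The carrier gene Slc16a7 went the other way, with 17.7 FPKM in WT against 11.2 in KO and a WT/KO ratio of 1.58. The carriers of the list thus had no common direction either.

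Also lower in the KO library were genes of ketone body use and of related reactions in the cytosol. Aacs, which activates acetoacetate in the cytosol for lipid synthesis, stood at 13.6 FPKM in WT against 2.77 in KO, with a WT/KO ratio of 4.92 (4.48 to 5.43). Bdh2, a cytosolic dehydrogenase, had 6.76 and 2.45 FPKM. Acat2, the cytosolic counterpart of Acat1 that feeds sterol synthesis, had 79.7 FPKM in WT against 37.0 in KO, with a WT/KO ratio of 2.15 (2.08 to 2.23). Acat1 and Acat2 thus differed between the libraries in opposite directions, under every scaling tried. Acat2 may share reads with its near copy Acat3, which had 106 and 95.2 FPKM. Oxct1, the transferase with which other organs take up acetoacetate into oxidation and which hepatocytes are known to lack, was low in both livers, at 2.24 and 1.14 FPKM.

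**Figure D3:**
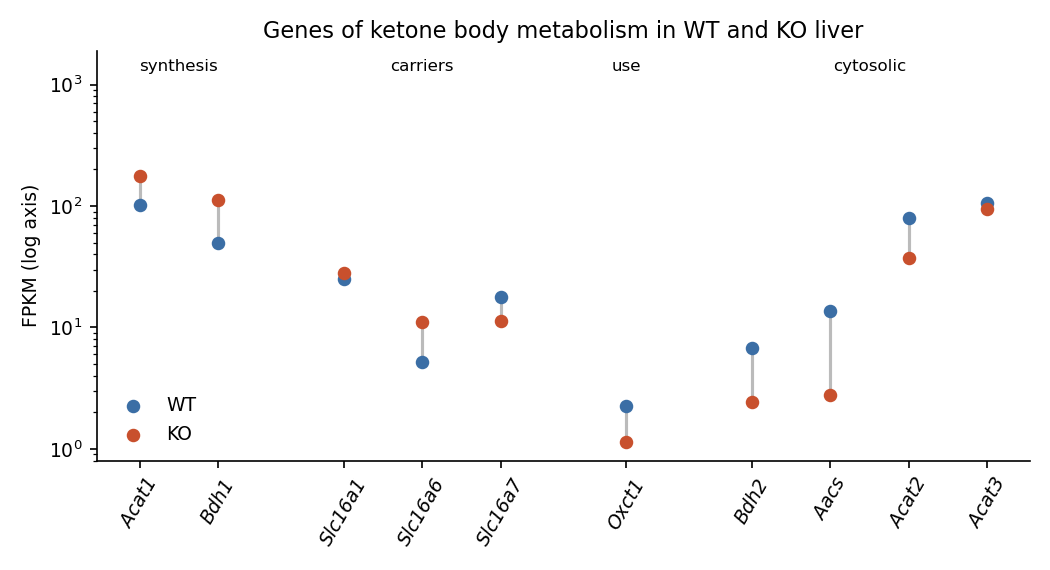
FPKM (log axis) of Acat1, Bdh1 and other genes of ketone body metabolism in the WT and KO libraries, grouped from left to right into the mitochondrial synthesis, the carriers, the use by other tissues and the cytosolic enzymes. Acat1 and Bdh1 lie higher in KO, at 102 and 177 and at 49.3 and 111, while Aacs lies lower in KO, at 13.6 and 2.77.

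Fgf21 encodes the hormone that fasted liver secretes and that acts through the co-receptor β-Klotho, encoded by Klb, on FGF receptors. It had the lowest level of the 6 genes, with 0.0821 FPKM in WT against 1.87 in KO. These values rested on about 3.98 WT and 98.8 KO fragments. The KO/WT ratio of 22.8 therefore had a counting interval from 8.59 to 84.9, the widest of the 6. Fgf21 (ENSMUSG00000030827) is a minus-strand gene of chromosome 7 (52869277 to 52870860, NCBIM37), with 3 exons in 1 transcript, and no other annotated gene overlaps its locus.

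The promoters of Fgf21 and Txnip are shown because they alone, among the members' promoters searched, held an exact match to a motif listed below. Other motifs and inexact matches were not searched. They were taken from RefSeq on GRCm38.p6, a later build than that of the expression table, whose promoter table held 5 windows of 4 of the 6 genes. Acat1 and Vnn1 had no entry in it. The motifs searched, on both strands of windows from 250 bases before to 50 bases after the start, were AGGTCA of nuclear receptors, a pair of AGGTCA in the same orientation 1 base apart, CACGTG (the E-box), GTAAACA of forkhead factors and TGACGTCA of the CREB and ATF factors. Printed are the 250 bases before the start, 5′ to 3′ in the direction of the gene, with the match in capitals, CACGTG in Fgf21 (chr7:45615491-45615740, minus strand) and GTAAACA in Txnip (chr3:96557707-96557956, plus strand):
Fgf21: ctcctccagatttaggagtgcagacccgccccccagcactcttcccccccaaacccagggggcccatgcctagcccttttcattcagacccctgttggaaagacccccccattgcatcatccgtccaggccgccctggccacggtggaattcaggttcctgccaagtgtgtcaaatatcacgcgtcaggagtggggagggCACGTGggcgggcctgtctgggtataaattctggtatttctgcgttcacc
Txnip: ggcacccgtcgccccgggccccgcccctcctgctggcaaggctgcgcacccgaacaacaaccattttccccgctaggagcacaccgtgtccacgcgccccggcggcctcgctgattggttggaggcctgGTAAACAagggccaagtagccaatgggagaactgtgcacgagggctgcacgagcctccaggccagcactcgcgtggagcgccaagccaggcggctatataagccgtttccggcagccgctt

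The E-box of Fgf21 begins 50 bases before the start, and 7.15% of all 32851 promoter windows held one. The forkhead motif of Txnip begins 121 bases before the start, and 3.65% of all windows held it. AGGTCA, present in 16.3% of all windows, was found in none of the 5 windows of the 6 genes. Neither was the pair of AGGTCA, which 0.0396% of windows held, nor TGACGTCA, which 1.79% held. The windows of Pdk4 and both of Bdh1 held no match. A match is a description of the letters, and binding was not measured.

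Genes of the Fgf21 receptors and of factors known to induce Fgf21 were mostly within 1.5-fold of WT. Of 10 such genes, 1 was more than 1.5-fold higher and 1 more than 1.5-fold lower in KO, beside 6.05% and 26.0% of all genes. The median log2 KO/WT ratio was -0.02, which became 0.26 with equal upper quartiles, 0.22 with centring and 0.13 with equal sums. The higher gene was Creb3l3, a hepatic transcription factor of the endoplasmic reticulum that is activated in fasting, with 75.0 FPKM in WT against 147 in KO and a KO/WT ratio of 1.96 (1.92 to 2.01). Ppara itself stood at 24.4 FPKM in WT against 25.2 in KO, with a ratio of 1.03 (0.991 to 1.08). Klb had 6.73 and 6.14 FPKM. The lower gene was Fgfr1, at 2.72 FPKM in WT against 1.08 in KO, with a WT/KO ratio of 2.53 (2.21 to 2.90).

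Fgf21 is also known as a target of ATF4, the factor of the amino acid and endoplasmic reticulum stress response. Among 10 ATF4 target genes, 1 was more than 1.5-fold higher and 5 more than 1.5-fold lower in KO, beside 6.05% and 26.0% of all genes. The median log2 KO/WT ratio was -0.58, beside -0.25 over all genes. Atf5, at 108 FPKM in WT against 229 in KO, was the higher one. Ddit4, an inhibitor of mTORC1, had 7.31 FPKM in WT against 1.14 in KO, with a WT/KO ratio of 6.43 (5.24 to 7.95). Psat1 of serine synthesis and Asns, the asparagine synthetase, were also lower in KO, with WT/KO ratios of 5.68 and 3.64.

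Pdk4 encodes a kinase that phosphorylates the pyruvate dehydrogenase complex and shuts it off, which keeps pyruvate from being oxidised when fatty acids are burned. It stood at 1.99 FPKM in WT against 5.14 in KO, from about 361 and 1017 fragments. The KO/WT ratio was 2.58 (2.29 to 2.92). Pdk4 (ENSMUSG00000019577) is a minus-strand gene of chromosome 6 (5433351 to 5446309), with no overlapping gene. The longest of its 2 annotated transcripts has 11 exons.

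The other kinases of the complex did not share this direction. Pdk1 stood at 7.99 FPKM in WT against 4.75 in KO, with a WT/KO ratio of 1.68 (1.57 to 1.80). Pdk2, the most abundant of the family here, had 32.7 and 21.9 FPKM, a KO/WT ratio of 0.669 (0.637 to 0.703). Pdk3, at 0.451 and 0.181 FPKM, had a WT/KO ratio of 2.49 (1.47 to 4.30). Pdk4 was thus the one kinase of the 4 that was higher in KO, and the other three stayed lower in KO under every scaling tried. In both livers Pdk2 was more abundant than Pdk4. Of the 11 genes of the complex, its other kinases and its phosphatases, 0 were more than 1.5-fold higher in KO and 3 more than 1.5-fold lower. Of all genes, 6.05% were higher and 26.0% lower by that fold. The median log2 KO/WT ratio of the 11 genes was -0.35, beside -0.25 over all genes. The subunit genes Pdha1 and Dlat had 40.9 and 20.7 FPKM in WT and 37.4 and 14.6 FPKM in KO.

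Vnn1 encodes a membrane-anchored pantetheinase, which splits pantetheine, a breakdown product of coenzyme A, into pantothenate and cysteamine, and it is a known PPARα target in liver. It stood at 6.36 FPKM in WT against 13.0 in KO, with a KO/WT ratio of 2.04 (1.88 to 2.22). Vnn1 (ENSMUSG00000037440) is a plus-strand gene of chromosome 10 (23614494 to 23625149), with 7 exons in 1 annotated transcript. Its paralog Vnn3, 24.8 kb away, had 12.4 FPKM in WT against 17.1 in KO, with a ratio of 1.39 (1.29 to 1.49). Both vanins were thus higher in the KO library, and Vnn1 by the larger ratio, with intervals that did not overlap.

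The vanin and coenzyme A list has 12 genes and leaves out Vnn1. Of these, 0 were more than 1.5-fold higher and 3 more than 1.5-fold lower in KO, beside 6.05% and 26.0% of all genes. With equal upper quartiles the counts were 1 and 1, beside 10.8% and 16.5% of all genes. The median log2 KO/WT ratio was -0.29, beside -0.25 over all genes. Nudt7, a peroxisomal hydrolase of coenzyme A, had 217 FPKM in WT against 97.3 in KO, with a WT/KO ratio of 2.24 (2.19 to 2.28). Nudt19, a hydrolase of the same family, and Pank3, a kinase of the opening step of coenzyme A synthesis, had KO/WT ratios of 0.564 and 0.666.

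Txnip encodes an α-arrestin that binds thioredoxin and restrains glucose uptake, and its gene is known to be switched on by glucose through MondoA and ChREBP. It stood at 8.22 FPKM in WT against 12.03 in KO, from about 1210 and 1932 fragments, and the KO/WT ratio of 1.46 (1.36 to 1.57) was the smallest of the 6. Txnip (ENSMUSG00000038393) is a plus-strand gene of chromosome 3 (96361880 to 96365806), with 8 exons in the longest of its 6 annotated transcripts. The assembled locus was wider, from 96359688 to 96370724, and holds the antisense lincRNA Gm15441. Gm15441 had 0.0942 FPKM in WT against 0.511 in KO, a 5.42-fold higher value from about 8.11 and 47.96 fragments. As the kit does not mark strand, reads from the overlap of Txnip and Gm15441 cannot be assigned to either.

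Arrdc4, the α-arrestin closest to Txnip and a target of the same factors, stood at 2.20 FPKM in WT against 3.68 in KO, with a KO/WT ratio of 1.67 (1.49 to 1.88). Txnip and Arrdc4 were both higher in KO, whereas Mlxipl, which encodes ChREBP, had 58.0 FPKM in WT against 36.7 in KO, with a WT/KO ratio of 1.58 (1.53 to 1.63). Of the 13 genes averaging at least 0.1 FPKM in the list of other α-arrestins, the thioredoxin system and MondoA/ChREBP, Arrdc4 was the 1 gene more than 1.5-fold higher. In the same list 3 genes were more than 1.5-fold lower, or 1 with equal upper quartiles. Of all genes, 6.05% were higher and 26.0% lower by that fold, or 10.8% and 16.5% with equal upper quartiles. The median log2 KO/WT ratio of the list was -0.34, beside -0.25 over all genes. Txn1, the thioredoxin that Txnip binds, had 178 and 140 FPKM.

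**Figure D4:**
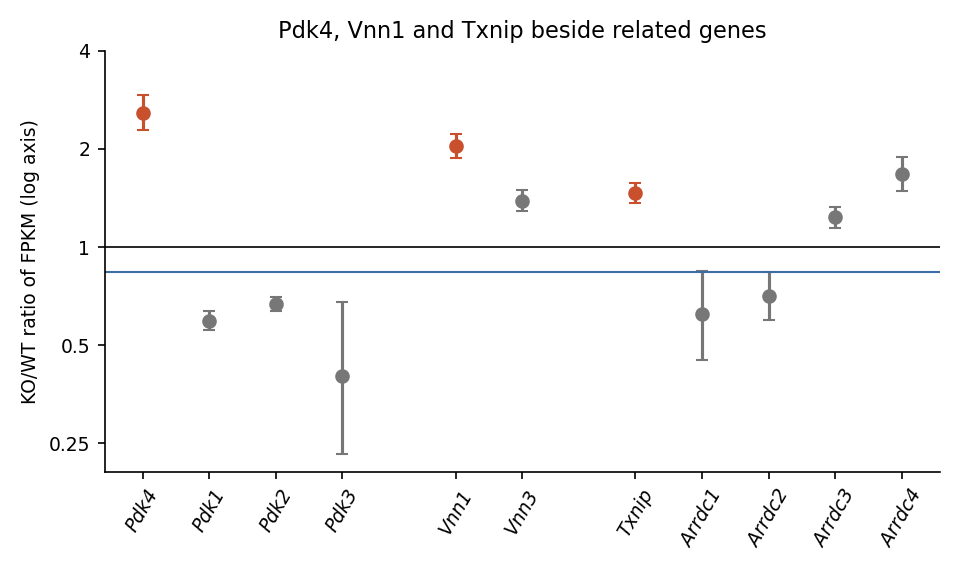
KO/WT ratio of FPKM (log axis) of Pdk4, Vnn1 and Txnip (in colour) and of their paralogs (grey), with 95% counting intervals as bars, a black line at a ratio of 1 and a blue line at the all-gene median. Pdk4 lies at 2.58 and its paralogs Pdk1, Pdk2 and Pdk3 lie below 1, while Vnn3, Arrdc3 and Arrdc4 lie above 1 with Vnn1 and Txnip, and Arrdc1 and Arrdc2 lie below it.

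Of 27 PPARα target genes of fasting liver, 20 were more than 1.5-fold higher and 0 more than 1.5-fold lower in KO. Of all genes, 6.05% were higher and 26.0% lower by that fold. More than 2-fold higher were 8 of the 27, beside 2.79% of all genes. All 27 had a KO/WT ratio above 1, up to 5.71 for Cyp4a10, and the median log2 ratio was 0.82. Cyp4a10 and Cyp4a14, fatty acid ω-hydroxylases of a gene family whose members may share reads, had 39.5 and 77.2 FPKM in WT and 226 and 302 FPKM in KO. Plin2, which coats lipid droplets, had 142 and 480 FPKM. Cpt1a, the gate of mitochondrial fatty acid oxidation, had 55.2 and 86.9 FPKM, a KO/WT ratio of 1.58 (1.54 to 1.61). The ratio of Fgf21 lay above that of each of these PPARα targets, and those of the other members did not.

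Genes that glucagon, glucocorticoids and low insulin are known to induce in fasting were 22 in number. Of these, 2 were more than 1.5-fold higher and 8 more than 1.5-fold lower in KO, beside 6.05% and 26.0% of all genes, and the median log2 KO/WT ratio was -0.51. With equal upper quartiles, 4 were higher and 4 lower, beside 10.8% and 16.5% of all genes. The higher ones were Igfbp1, which binds insulin-like growth factors and is held down by insulin, at 108 FPKM in WT against 360 in KO, and G6pc, the glucose-6-phosphatase that lets glucose leave the liver, at 55.3 and 109. Pck1, the enzyme that commits carbon to gluconeogenesis, had 852 and 818 FPKM. Foxo1, at 9.19 and 6.13 FPKM, had a KO/WT ratio of 0.667. Farthest below WT were the clock gene Per1, the serine dehydratase Sds and the transcriptional repressor Bcl6, with WT/KO ratios of 2.46, 2.12 and 1.88.

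Genes of the response to feeding and insulin were mostly lower in KO. Of 15 averaging at least 0.1 FPKM, 11 were more than 1.5-fold lower and 3 more than 1.5-fold higher, beside 26.0% and 6.05% of all genes. The median log2 KO/WT ratio was -1.27, beside -0.25 over all genes. Thrsp, a regulator of lipogenesis, had 156 FPKM in WT against 3.95 in KO, and Acly, which makes cytosolic acetyl-CoA, had 118 and 22.7. Srebf1, the lipogenic transcription factor, had 46.6 and 9.21 FPKM, a WT/KO ratio of 5.06 (4.83 to 5.29). The 3 higher genes were Ppp1r3c, which directs a phosphatase to glycogen, the immediate early gene Egr1 and Gm6484, the table's symbol for Angptl8, with KO/WT ratios of 3.57, 3.55 and 1.51.

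**Figure D5:**
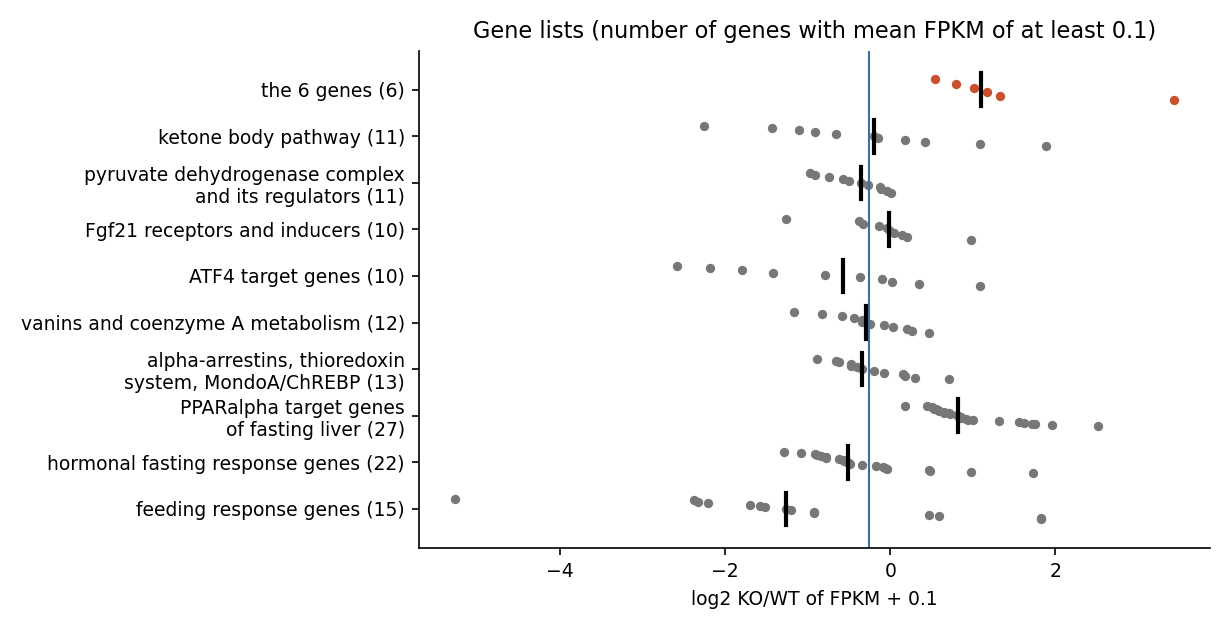
log2 KO/WT ratio (pseudocount of 0.1 FPKM) of each gene in the 6 members and the 9 pathway lists, 1 point per gene averaging at least 0.1 FPKM, with the median of each list as a bar and the all-gene median of -0.25 as a line. The medians run from -1.27 for feeding response genes to 0.82 for PPARα targets and 1.10 for the 6 members.

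Outside the assembled loci of the 6 members, the genes beside them on the chromosome had smaller ratios than the members themselves. Inside the loci, the antisense transcripts Gm15441 and Gm16124 had KO/WT ratios of 5.42 and 1.77, above those of Txnip and Acat1. The nearest gene on each side of a locus, with a single-symbol row averaging at least 0.1 FPKM, was taken. The KO/WT ratios ran from 0.593 for Npat, next to Acat1, to 1.39 for Vnn3, next to Vnn1. On the 2 sides of Bdh1, Ppp1r2 and Dlg1, 147 and 204 kb away, had ratios of 0.869 and 0.834. Beside Pdk4, Asb4, 50.3 kb away, had 0.737 and Slc25a13, 545 kb away, had 0.928. Beside Fgf21 the ratios were 1.02 for 0610005C13Rik, 24.2 kb away, and 0.620 for Gm16047, 6.32 kb away. Asb4, at 0.117 FPKM in WT and 0.0862 in KO, and Gm16047, at 0.156 and 0.0968, were low in both libraries. Next to Txnip, Polr3gl, 10.2 kb away, had 2.90 FPKM in WT against 3.57 in KO, with a ratio of 1.23.

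For each member the genes with the closest pair of log2 FPKM values were sought, over 2 libraries only. Nearest to Bdh1 were St3gal5, a ganglioside synthase, at 49.1 FPKM in WT against 102 in KO, and Cyp4a12a, at 48.5 and 123. Nearest to Acat1 were Alad, of haem synthesis, at 107 and 182 FPKM, and Acsl1, an acyl-CoA synthetase, at 104 and 192. Pdk4 was closest to Mir122a, at 2.09 and 5.23 FPKM, and to Nucb2, at 1.88 and 5.56. Fgf21 had few genes near it, and the closest, Cend1 and the regenerating gene Reg3b, lay 0.158 and 0.568 away on the log2 scale. Vnn1 was closest to Nceh1 and Irak2, with KO/WT ratios of 1.92 and 2.03, and Txnip to Prune and Ddx28, with 1.48 and 1.42.

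Markers of the cell types a liver sample can hold were summed in each library. Hepatocyte markers summed to 14663 FPKM in WT against 13756 in KO, with 1 of 8 more than 1.5-fold higher and 2 lower in KO, so both libraries held the markers of the labelled tissue. Sums lower in KO under every scaling were 44.8 and 28.9 FPKM for macrophages, 50.3 and 36.4 for endothelial cells and 95.5 and 61.4 for stellate cells. With the FPKM as deposited, 6 of 8, 5 of 7 and 3 of 7 of these markers were more than 1.5-fold lower, beside 26.0% of all genes. The other scalings raise the KO values and can only lower these counts, which were not taken again. Neutrophil markers summed to 12.8 and 6.82 FPKM, with Ly6g, Mpo and Camp at 0, and lymphocyte markers to 0.973 and 0.475. Cholangiocyte markers summed to 29.8 and 25.7 FPKM and erythroid markers to 427 and 355, and the KO sums of these lists were the higher ones with equal upper quartiles. Adipocyte markers summed to 18.5 and 17.4 FPKM, nearly all of it Fabp4, with Lep at 0 in both, and muscle markers to 0.684 and 0.271, with Ckm and Myh4 at 0. Under each of the other scalings, the KO sums of the hepatocyte and adipocyte lists were the higher ones. Of the pancreatic acinar markers, Prss2, Cpa1, Pnlip and Ctrb1 were at 0 in both, and the sums of 8.77 and 18.8 FPKM were nearly all Cela1. In whole liver, fewer cells of a type and less RNA per cell cannot be told apart, and the part of these differences in the values of the 6 genes was not tested.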

How the data were processed

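Hepatic RNA of 1 WT and 1 KO liver sample was made into libraries with the TruSeq RNA kit and sequenced on an Illumina HiSeq instrument. The labels name paired end reads and the methods single end reads. The authors aligned the reads with TopHat 2.0.0 to NCBI37 (mm9), assembled transcripts with Cufflinks 1.3.0 and ran Cuffdiff, and they deposited 1 FPKM per assembled locus and library, estimated by the authors and scaled to exon length and mapped fragments. Columns of the authors' own comparison (fold change, statistic, p-value, q-value and a significance mark) were not used.

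From the 38016 loci, 21 marked HIDATA were left out, rows of the same symbol were summed, and the 850 loci that name several symbols were counted for each. No symbol stood at 2302 loci. KO/WT ratios use deposited FPKM values, with no pseudocount. Medians of log2 ratios used a pseudocount of 0.1 FPKM over genes averaging at least 0.1 FPKM, and expressed genes average at least 1 FPKM. Thresholds of 1.5-fold and 2-fold stand in place of a test, since 1 library per genotype gives no spread between mice. Depth was estimated from the steps between low values of single-exon genes, 190 in WT and 181 in KO, of which 66.8% and 68.5% lay near a whole number (closer than 0.25 of a step), so it is a rough estimate. The step was chosen as the best match to these same values, so the shares are no separate check of it. Values without steps would also often lie that near a whole number. Fragments were estimated with the length of the longest annotated transcript of each symbol. Lengths and coordinates came from GENCODE vM1 on NCBIM37, in which 32451 of the 33224 symbols were found, and coordinates are counted from 1.

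The 6 genes and the 20 gene lists set beside them (9 of pathways, 11 of cell type markers) were chosen with earlier results of these data known. Marker lists are given as sums, and Acta1 of the muscle markers was not used here. Named from each list were up to 3 genes higher and 3 lower in KO with the largest folds above 1.5 and an average of 1 FPKM or more, a set of genes central to these pathways (the results of some are not reported here), and for each member the 2 single-symbol genes nearest to it by Euclidean distance between log2 FPKM values. Pdk3, Pdha1, Dlat, Acat3, Slc16a7, Txn1 and the neighbours on the chromosome were named after their values were seen. Alternatives covered the scaling, the fold, the pseudocount, the filter on low FPKM and the handling of rows. The steps were tested on simulated libraries. The software was Python 3.11.15 with scipy 1.17.1, pandas 2.3.3, numpy 2.4.6 and, for the plots, matplotlib 3.10.9.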

Additional observations from a re-analysis of the deposited data

How the results depend on the processing

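The alternatives could not turn the direction of the 6 genes, since each scaling raises the KO values and a pseudocount keeps the sign. The KO/WT ratios of Bdh1, Acat1, Pdk4, Vnn1 and Txnip were 2.74, 2.10, 3.13, 2.47 and 1.77 with equal upper quartiles and 2.66, 2.04, 3.04, 2.41 and 1.73 with both libraries centred on the median of expressed genes. With equal sums of FPKM without the 50 most abundant genes, Bdh1 had 2.50, Acat1 1.92, Vnn1 2.26 and Txnip 1.62. A pseudocount of 1 FPKM brought the ratio of Pdk4 to 2.05 and that of Fgf21 to 2.65. Members more than 1.5-fold higher numbered 6 under each of the 3 scalings and 4 when only rows with a single symbol were used, which drops Acat1. Genes more than 1.5-fold higher in KO numbered 952 as deposited, 1718 with equal upper quartiles, 1577 with centring, 492 among genes averaging at least 1 FPKM and 2314 with no filter, and 439 passed 2-fold. Genes lower in KO numbered 4092, and 2623 with equal upper quartiles, 2330 with a mean of at least 1 and 6613 with no filter, and 2104 passed 2-fold. The all-gene median log2 ratio of -0.25 became 0.0105 with equal upper quartiles, -0.0260 with centring, -0.11 with equal sums, -0.24 with a mean of at least 1, -0.21 with no filter, -0.26 with a pseudocount of 0.01 FPKM and -0.17 with a pseudocount of 1 FPKM. The median of the ketone body list turned to 0.0767 and 0.0380 with equal upper quartiles and centring, and that of Fgf21 receptors and inducers to 0.26, 0.22 and 0.13 under the 3 scalings. Of the counts over the other lists and alternatives, 119 stayed within 1.5 times and 25 did not. The shifts of the medians under the scalings follow from their construction, which multiplies every KO value by 1 factor. No paired analysis was possible because WT and KO each have 1 library. For the same reason no leave-one-out analysis was possible. The depth limits Fgf21 most, as its WT value rests on about 3.98 fragments.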
